A study of Mus musculus with 8 samples.

Results

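The 9 genes described here encode enzymes and one accessory protein that turn membrane lipids into prostaglandins and leukotrienes, or that break down platelet-activating factor: *Ptgs1*, *Ptgs2*, *Ptges* and *Hpgds* on the prostaglandin side, *Alox5*, *Alox5ap*, *Ltc4s* and *Lta4h* on the leukotriene side, and *Pla2g7*. They were chosen by symbol, and all 9 had a row among the 27923 genes of the 8 single-cell tables. The samples were lung tumors of 2 mice of a Cre-induced lung tumor model, *p53* fl/fl among its alleles, chimeras made from C57BL/6 embryonic stem cells and 12 weeks old when adenovirus carrying Cre under the SPC promoter, which is active in surfactant-producing lung epithelium, was given into the trachea. Tumors were taken 16 weeks later, cut and stained with a photoactivatable calcein dye (calcein NVOC). In each tumor the border with healthy tissue was illuminated and its tagged living cells were sorted onto 1 Seq-Well array, whereas cells from the whole tumor, never illuminated, went onto 3 arrays. All 4 groups (Tumor 1 border, Tumor 1 whole, Tumor 2 border, Tumor 2 whole) carried the same alleles and the same Cre, so no group lacked the tumor. The whole-tumor arrays repeat 1 tumor of 1 mouse, and the border of each tumor is a single library whose spread was borrowed from the other libraries. The p-values below therefore measure the spread between arrays and not between animals. Of the 2 mice 1 was male and 1 female, so tumor, mouse, sex and dissection cannot be told apart. Within a tumor, border against whole likewise cannot be told apart from illumination and sorting on the tag.

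Prostaglandins and leukotrienes are both made from arachidonic acid released from cell membranes. The cyclooxygenases COX-1 (*Ptgs1*, made steadily in many cells) and COX-2 (*Ptgs2*, induced by inflammatory signals) convert it to prostaglandin H2, from which terminal synthases make prostaglandin E2 (*Ptges*) or prostaglandin D2 (*Hpgds*). In the other branch, 5-lipoxygenase (*Alox5*) works with its activating protein FLAP (*Alox5ap*) to make leukotriene A4, which leukotriene C4 synthase (*Ltc4s*) or leukotriene A4 hydrolase (*Lta4h*) carries on, and *Pla2g7* encodes the secreted hydrolase of platelet-activating factor, another lipid messenger of inflammation. Neutrophils and macrophages are known for the leukotriene branch, and prostaglandin E2 is known in tumors as a product of epithelial, stromal and myeloid cells.

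The tables held 4343 barcodes with 405627 to 2029200 unique molecular identifiers (UMIs, each 1 captured RNA molecule) per library. Of these barcodes, 3894 had at least 200 genes, and 2538 of those (65.2%) could be given to 1 of 14 classes, each called after the marker genes that define it and written with "-like". The largest class, neutrophil-like (1384 barcodes, defined by *Csf3r*, *Cxcr2*, *S100a8*, *S100a9* and others), made up 95.8% of the gated barcodes of the Tumor 1 border, 49.4% to 56.6% of the Tumor 1 whole arrays, 26.9% of the Tumor 2 border and 45.9% to 55.5% of the Tumor 2 whole arrays. The study's own text places such *Csf3r*+ *G0s2*+ cells among monocytes or macrophages, so class names here may differ from it. It identified no separate neutrophil population, but allowed that neutrophils may lie within its monocyte and macrophage clusters. Cell names inside all 8 tables carried the number of the other tumor, and the sample labels were followed. Were the cell names right, the tumor numbers below would be exchanged. Under the labels, the barcodes of each tumor and region are as many as the study states. Among the 3848 distinct barcodes 10 occurred in more than 1 library, all of them resembling the amplification primer or a run of 1 base. Levels are given as CPM, the UMIs of a gene relative to all UMIs of the class, as parts in 1000000, and the method captures RNA at the 3′ end, so that gene length enters little. Shares of positive barcodes rise with depth and cover detection only.

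COX-2 was the most abundant of the 9 transcripts, with 6314 UMIs in all barcodes, followed by *Pla2g7* with 3808 and *Alox5ap* with 1538. The other 6 had 312 (*Ptges*) to 550 (*Lta4h*) UMIs each. Between 80.9% (*Hpgds*) and 92.9% (*Ltc4s*) of the UMIs lay in barcodes that could be given a class.

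*Ptgs2* lies on chromosome 1 (GRCm38, chr1:150100031-150108227, plus strand) and no other annotated gene overlaps it. Its promoter is shown because *Ptgs2* was called in each neutrophil-like comparison described below. The window runs from 250 bases before to 50 after the RefSeq start (GRCm38.p6, chr1:150099781-150100080, plus strand), and capitals mark the searched motifs found in it.
Ptgs2 promoter: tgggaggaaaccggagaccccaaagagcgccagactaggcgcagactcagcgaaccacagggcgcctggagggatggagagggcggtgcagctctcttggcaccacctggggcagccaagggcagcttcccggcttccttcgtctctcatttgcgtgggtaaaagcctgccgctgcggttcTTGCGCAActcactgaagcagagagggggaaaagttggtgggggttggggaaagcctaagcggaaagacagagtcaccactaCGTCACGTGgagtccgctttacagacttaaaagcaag
The first run of capitals holds the palindromic C/EBP motif TTGCGCAA, 69 bases before the start, a string present in 0.183% of 32851 promoter windows of the same length. The second run, from 13 bases after the start, holds a cyclic AMP response core (TGACG, read on the other strand) overlapping an E-box (CACGTG), and these were present in 20.8% and 7.15% of windows. Neither a loose NF-κB motif (in 20.7% of windows) nor TATAAA (13.6%), searched on both strands like the others, was in this window, and the *Ptgs1* window held none of the 5 motifs. These matches describe letters only.

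The 9 transcripts were spread unevenly over the classes. *Ptgs2* was high in fibroblast-like barcodes and in most myeloid classes, *Ptges* was almost confined to fibroblast-like and tumor-like barcodes, *Ptgs1* was high in surfactant-positive tumor-like barcodes, and *Alox5ap*, *Ltc4s* and *Pla2g7* were myeloid. Each class was compared with the mean of the other classes by edgeR's quasi-likelihood test on class sums, with the library as a block. This comparison could test 5 of the 9 genes in each class fitted. It called 21 of these gene and class pairs higher and 0 lower. Over all genes 19.3% of 38892 pairs were called higher and 5.89% lower. For each of the 5 genes some classes held 0 UMIs, and these lower the mean that a class is set against. A lower call could therefore hardly be made, and the 0 lower says little about these genes. In B-like barcodes, with 0 *Ptgs2* UMIs, edgeR's test of *Ptgs2* gave an unadjusted p of 0.99988.

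**Figure D1:**
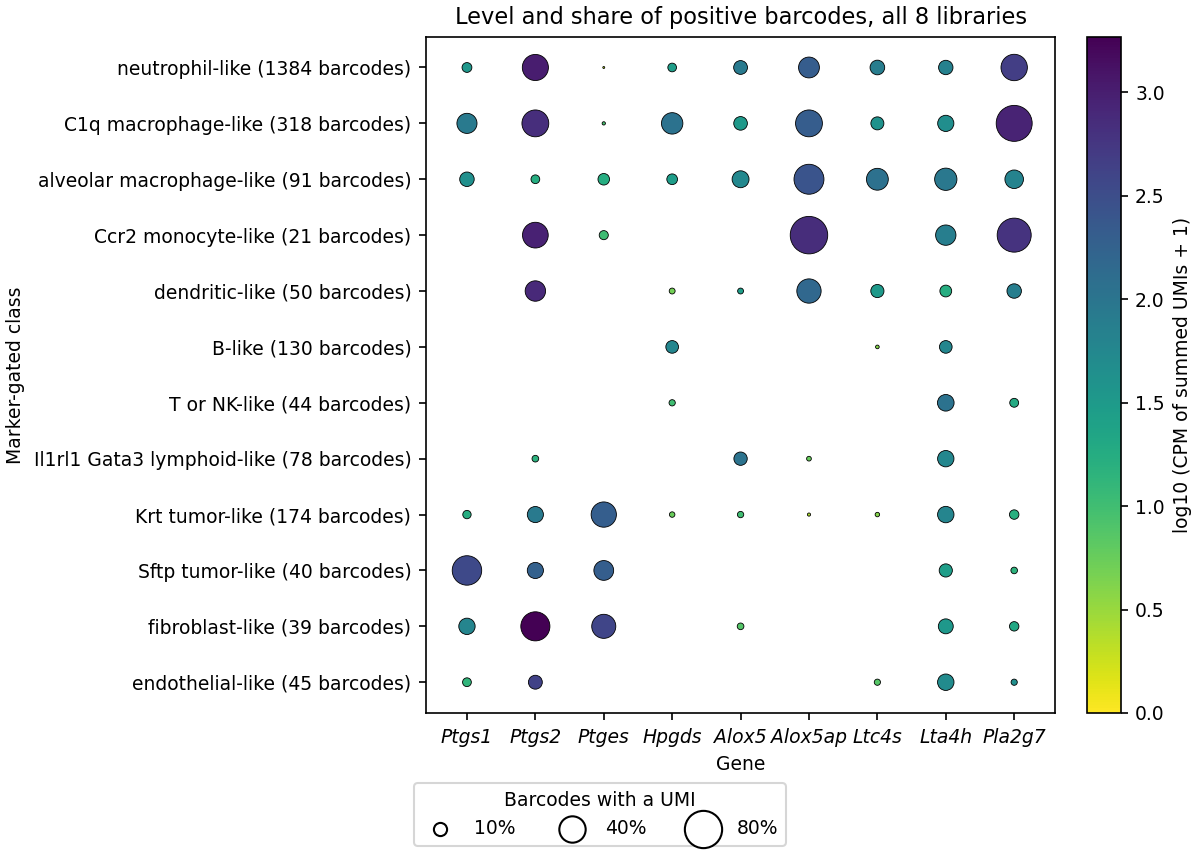
Level and detection of the 9 genes (columns) in 12 marker-gated classes (rows) over all 8 libraries. Color gives log10 of CPM + 1 and dot area the percent of barcodes with at least 1 UMI; *Ptges* is dark in the fibroblast-like, Krt tumor-like and Sftp tumor-like rows, whereas *Alox5ap* and *Pla2g7* are dark in the C1q macrophage-like, Ccr2 monocyte-like and neutrophil-like rows.

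*Ptgs1* (chr2:36230426-36252272, overlapped on the other strand by Gm43621), the constitutive cyclooxygenase, reached 355 CPM in Sftp tumor-like barcodes (surfactant genes; 20 of 40 barcodes with a UMI). By library it stood there at 504, 332 and 102 CPM in the Tumor 1 whole arrays, at 310 CPM in the Tumor 2 border and at 653, 0 and 239 CPM in the Tumor 2 whole arrays, from 4 to 11 barcodes each. C1q macrophage-like barcodes stood at 85.3 CPM over all libraries (23.3% with a UMI), or 44.2 CPM without the Tumor 2 border. Further down, fibroblast-like, alveolar macrophage-like and neutrophil-like barcodes (58.5, 42.5 and 33.3 CPM, the first at 29.2 CPM without Tumor 1 whole array 2) could not be ordered by library. No *Ptgs1* UMI was seen in 130 B-like, 78 Il1rl1 Gata3 lymphoid-like, 50 dendritic-like, 44 T or NK-like or 21 Ccr2 monocyte-like barcodes. The edgeR fit called *Ptgs1* higher in the Sftp tumor-like (adjusted p = 2.49e-10), C1q macrophage-like (0.000294) and alveolar macrophage-like classes (0.0273), where 13.7%, 25.5% and 22.4% of the 3241 tested genes were called higher. The alveolar macrophage-like call was lost with DESeq2, with at most 20% mitochondrial UMIs, and without the Tumor 2 border or Tumor 2 whole array 3.

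*Ptgs2*, the inducible cyclooxygenase, stood at 1853 CPM in the 39 fibroblast-like barcodes, of which 48.7% held a UMI, and at 1089 CPM without Tumor 1 whole array 2. Its levels there were 3393 and 1780 CPM in Tumor 1 whole arrays 2 and 3, 266 CPM in the Tumor 2 border and 1562 and 654 CPM in Tumor 2 whole arrays 2 and 3, counting library sums of at least 10000 UMIs. In neutrophil-like barcodes it stood at 1009 CPM (39.2% of barcodes with a UMI), which amounted to 62.9% of all gated *Ptgs2* UMIs in 54.5% of gated barcodes. The fibroblast-like level exceeded the neutrophil-like level in only 2 of 5 libraries, so their order was not settled. Dendritic-like barcodes stood at 778 CPM and C1q macrophage-like ones at 693 CPM. Resident-type alveolar macrophage-like barcodes lay far lower at 16.5 CPM, from 7 UMIs in 91 barcodes, or 5.93 CPM without Tumor 2 whole array 1. *Ptgs2* was not seen in 130 B-like barcodes, which allows up to 2.31% of barcodes with a UMI and sets no limit on cells that express it, although their median depth of 2154.5 UMIs was close to the 2205 of neutrophil-like barcodes, nor in 44 T or NK-like barcodes. The fit called *Ptgs2* higher in the neutrophil-like (1.22e-10, against 36.5% of genes), fibroblast-like (1.90e-08, 15.5%), C1q macrophage-like (2.43e-06) and dendritic-like classes (0.00117, 17.1%). The dendritic-like call was lost without Tumor 2 whole array 1 or 3, and every dendritic-like barcode of Tumor 1 was at 0.

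*Ptges* (chr2:30889471-30929863, minus strand, overlapped by Gm13400 on the same strand), the inducible prostaglandin E synthase, stood at 390 CPM in fibroblast-like barcodes (33.3% with a UMI), and at 198 CPM in both Krt tumor-like barcodes (keratin genes; 174 barcodes, 36.8%) and Sftp tumor-like barcodes (22.5%). In the latter, 14 of the 29 UMIs came from 1 barcode of Tumor 1 whole array 1, and the level without that array was 106 CPM. The Krt tumor-like class held 47.8% of all gated *Ptges* UMIs. Its level there was even across Tumor 1, at 167 CPM in the border and 178, 192 and 250 CPM in the whole arrays, while Tumor 2 had only 7 such barcodes. By contrast, 1384 neutrophil-like barcodes held 4 *Ptges* UMIs (1.16 CPM), and 11 of the 12 UMIs of the C1q macrophage-like class came from 1 barcode. Calls of higher *Ptges* were made for fibroblast-like (1.50e-10), Krt tumor-like (1.81e-07, against 26.8% of genes) and Sftp tumor-like barcodes (7.39e-07).

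Detection of a cyclooxygenase and *Ptges* in the same barcode followed these levels. Of 39 fibroblast-like barcodes, 9 held both *Ptgs2* and *Ptges*, 10 *Ptgs2* only and 4 *Ptges* only. Of 174 Krt tumor-like barcodes, 12 held both, 14 *Ptgs2* only and 52 *Ptges* only, and 5 held *Ptgs1* with *Ptges*. In neutrophil-like barcodes the pair met in 1 of 1384, beside 542 with *Ptgs2* alone. The 2 cyclooxygenases were found together in 23 neutrophil-like barcodes, against 520 with *Ptgs2* only and 54 with *Ptgs1* only. A barcode without a UMI may still express the gene at this depth.

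**Figure D2:**
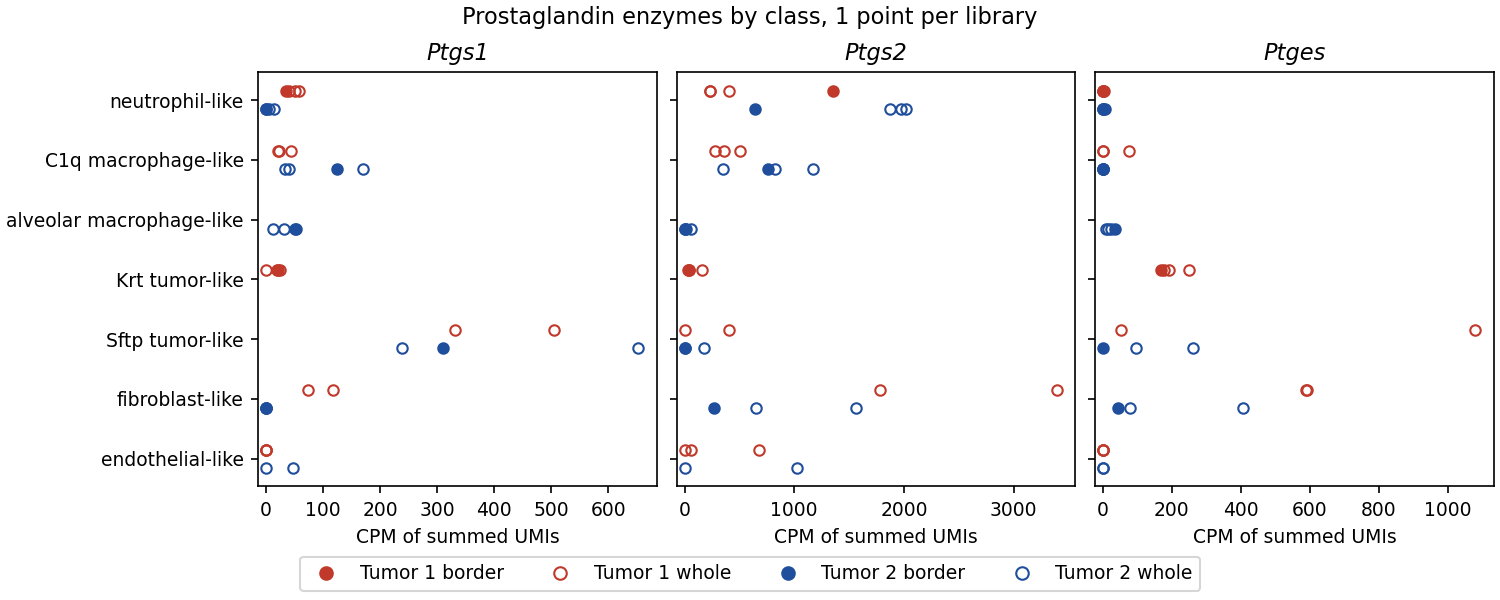
*Ptgs1*, *Ptgs2* and *Ptges* (panels, linear x axes in CPM) in 7 classes, 1 point per library with at least 10000 UMIs in the class; filled points are border libraries, open points whole-tumor arrays, red Tumor 1 and blue Tumor 2. *Ptges* is near 0 in every neutrophil-like sum and between 167 and 250 CPM in the 4 Krt tumor-like sums of Tumor 1, and *Ptgs2* covers a wide range within the neutrophil-like and fibroblast-like rows.

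*Hpgds* (chr6:65117293-65144908, minus strand, with Gm17147 on the other strand), the hematopoietic prostaglandin D synthase, stood at 108 CPM in C1q macrophage-like barcodes, with 26.4% positive and 54.6% of its gated UMIs. There it measured 113 CPM in the Tumor 2 border and 115, 119 and 135 CPM in the Tumor 2 whole arrays, and 0, 82.2 and 22.1 CPM in the Tumor 1 whole arrays. The B-like class had 57 CPM, which rested on 1 library. In the Tumor 2 border 17 UMIs gave 178 CPM and 23.3% of 43 B-like barcodes were positive, whereas every other library had at most 1 UMI in its B-like barcodes. Alveolar macrophage-like barcodes had 102 CPM in the Tumor 2 border, from 6 UMIs in 3 of 12 barcodes, with 4 UMIs in 1 barcode. In the Tumor 2 whole arrays they had 0 to 19.2 CPM, the highest from 4 UMIs of 1 barcode. *Hpgds* was too low for the class comparison under the filter on low counts.

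Leukotriene genes had a different map. *Alox5* (chr6:116410077-116461178, minus strand), the 5-lipoxygenase, stood at 83.7 CPM in neutrophil-like barcodes, which held 67.8% of its gated UMIs, with 11% positive. Il1rl1 Gata3 lymphoid-like barcodes reached 104 CPM over all libraries, but with a split between tumors. The Tumor 1 whole arrays stood at 238, 161 and 227 CPM there, whereas the Tumor 2 border and arrays 1 and 2 had none and array 3 had 20.5 CPM, from 7 to 18 barcodes each. Alveolar and C1q macrophage-like barcodes stood at 54.3 and 31.8 CPM (the latter at 13.8 CPM without the Tumor 2 border), and no UMI was seen in B-like, T or NK-like, Sftp tumor-like, endothelial-like or Ccr2 monocyte-like barcodes. *Alox5* too was not among the genes the class comparison could test.

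*Alox5ap* (chr5:149264767-149288153, plus strand, overlapped on the other strand by n-R5s180 and Gm19719), the 5-lipoxygenase activating protein, was found in several myeloid classes. It stood at 719 CPM in Ccr2 monocyte-like barcodes (81.0% of 21 positive, all from Tumor 2). The Tumor 2 whole arrays had 552, 847 and 751 CPM there, from 4, 2 and 14 barcodes. The sum of array 2 held 4725 UMIs, below the 10000 required of sums elsewhere. Over all libraries alveolar macrophage-like, C1q macrophage-like and neutrophil-like barcodes stood at 264, 207 and 205 CPM. Within libraries, however, the C1q macrophage-like level was above the neutrophil-like one in only 1 of 7, the Tumor 2 border (268 against 161 CPM), and the whole arrays ran from 48.0 to 264 CPM in C1q macrophage-like and from 102 to 524 CPM in neutrophil-like barcodes. Dendritic-like barcodes had 151 CPM and were below neutrophil-like ones in 6 of 6 libraries. Outside these classes *Alox5ap* stayed at or under 4.72 CPM, and B-like, T or NK-like, Sftp tumor-like, fibroblast-like and endothelial-like barcodes had none. The fit called it higher in neutrophil-like (adjusted p = 2.23e-17), C1q macrophage-like (1.02e-09), alveolar macrophage-like (1.21e-09) and dendritic-like barcodes (6.54e-06).

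*Ltc4s* (chr11:50236461-50238616, minus strand, with Gm26542 on the other strand), which conjugates leukotriene A4 with glutathione, stood at 116 CPM in alveolar macrophage-like, 77.1 CPM in neutrophil-like and 38.6 CPM in C1q macrophage-like barcodes over all libraries. This order did not hold by library. The neutrophil-like level was above the C1q macrophage-like one in 4 of 7 libraries, with 117 to 150 CPM in the Tumor 1 whole arrays but 9.33 to 11 CPM in those of Tumor 2, and without the Tumor 2 border C1q macrophage-like barcodes had 13.8 CPM. *Lta4h* (chr10:93453411-93484875, plus strand), which makes leukotriene B4, was the only 1 of the 9 genes with a UMI in every class of the dot plot. Its levels ran from 15.9 CPM in dendritic-like to 108 CPM in T or NK-like barcodes (25.0 CPM without Tumor 2 whole array 1), and neighbors in that order changed places between libraries. In single neutrophil-like barcodes *Alox5* and *Alox5ap* met in 58, against 94 with *Alox5* only and 288 with *Alox5ap* only, and *Alox5ap* and *Ltc4s* met in 39.

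*Pla2g7* (chr17:43568098-43612201, plus strand, with 1700071M16Rik on the other strand) was found in most myeloid classes. It stood at 901 CPM in C1q macrophage-like (74.5% positive), 607 CPM in Ccr2 monocyte-like and 472 CPM in neutrophil-like barcodes. Alveolar macrophage-like barcodes stood apart from these with 63.7 CPM, and no UMI was found in 130 B-like or 78 Il1rl1 Gata3 lymphoid-like barcodes. It was called higher in C1q macrophage-like (9.88e-21) and neutrophil-like barcodes (4.24e-18). Without the filter on low counts, all 9 genes could be tested in each class fitted. Of these gene and class pairs 39 were called higher, beside 6.31% of the 274380 pairs of all genes. Among the added calls were *Hpgds* in C1q macrophage-like (8.10e-22, against 10.7% of genes), *Alox5* in neutrophil-like (1.51e-22, 16.5%) and Il1rl1 Gata3 lymphoid-like (4.80e-06, 2.87%), and *Ltc4s* in alveolar macrophage-like (2.18e-15, 7.73%) and neutrophil-like barcodes (7.62e-15). *Hpgds* was also called in neutrophil-like barcodes at only 26.9 CPM (1.19e-08) and in B-like barcodes (0.00611, 4.02%), where it rested on 1 library.

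The next comparison asked how the genes differed between the tumor border and the whole tumor within the neutrophil-like class, the one class with enough UMIs in all 8 libraries. *Ptgs2* differed in opposite directions in the 2 tumors. In Tumor 1 it stood at 1358 CPM at the border and at 233, 409 and 228 CPM in the whole arrays, and in Tumor 2 at 641 CPM at the border and at 1873, 2020 and 1977 CPM in the whole arrays. Border and whole arrays overlapped in neither tumor, the border being the higher in Tumor 1 and the lower in Tumor 2. Shares of positive barcodes gave the same picture, with 45.2% against 18.8%, 16.1% and 17.2% in Tumor 1 and 40.9% against 57.3%, 49.6% and 66.5% in Tumor 2. After thinning every barcode to 500 UMIs the shares were 29.0% against 7.09% to 10.2%, and 20.4% against 35.2% to 41.7%. In Tumor 1 whole array 2, 115 of the 328 *Ptgs2* UMIs came from 1 barcode.

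In the edgeR fit over all 8 neutrophil-like sums, *Ptgs2* was higher at the Tumor 1 border by 2.73 ± 0.27 (log2 ± SE, adjusted p = 1.35e-13) and lower at the Tumor 2 border by a log2 change of -2.02 ± 0.34 (adjusted p = 1.98e-05). The difference between these changes was 4.75 ± 0.46 (adjusted p = 1.69e-13). Of 6185 genes tested, 436 (7.05%) were called higher and 120 (1.94%) lower at the Tumor 1 border, 218 (3.52%) higher and 339 (5.48%) lower at the Tumor 2 border, and 489 (7.91%) and 242 (3.91%) differed between the tumors in each direction. With scaling by library size alone in place of TMM these counts were 186 higher and 955 lower, 664 higher and 180 lower, and 187 and 1256. The median of all genes then moved by -0.55, 0.47 and -1.02, and the 3 *Ptgs2* calls were kept. The 3 comparisons share the same whole arrays and borders and are not independent.

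**Figure D3:**
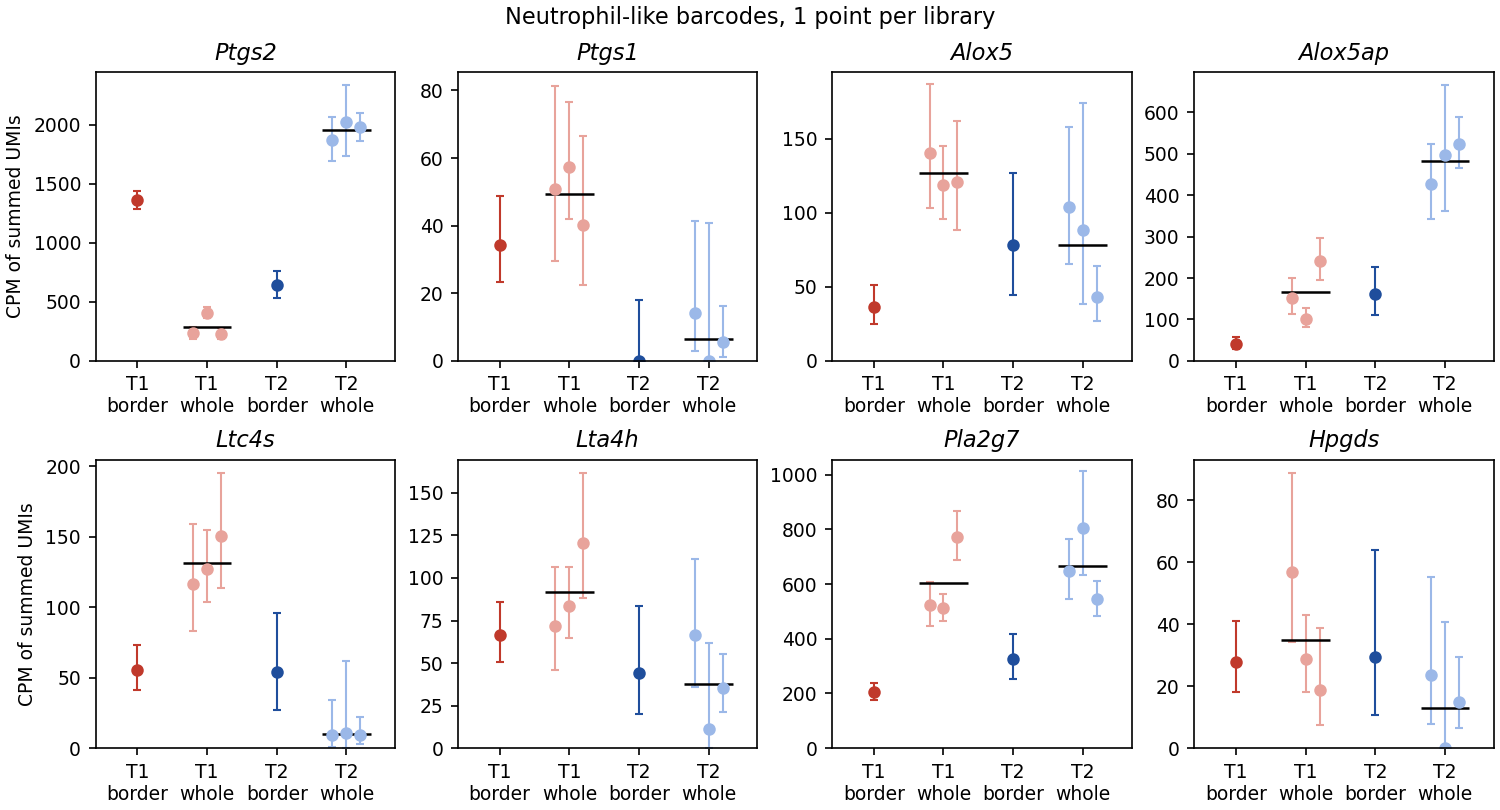
CPM of 8 genes in neutrophil-like barcodes, 1 point per library, with 95% exact Poisson intervals that cover counting error only and black lines at the mean of each trio of whole arrays (T1, Tumor 1; T2, Tumor 2). *Ptgs2* is high at the Tumor 1 border (1358) and in the Tumor 2 whole arrays (1873 to 2020), *Ltc4s* is high in the Tumor 1 whole arrays (117 to 150), and *Alox5ap* in the Tumor 2 whole arrays (426 to 524).

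At the Tumor 1 border 1 of the 8 genes tested (*Ptgs2*) was higher and 3 were lower, beside 7.05% and 1.94% of all genes. The 3 lower ones were the 5-lipoxygenase, its activating protein and the hydrolase. *Alox5* stood at 36.6 CPM at the border against 140, 119 and 121 CPM in the whole arrays, a log2 change of -1.24 ± 0.42 (adjusted p = 0.0425). *Alox5ap* stood at 41.1 CPM against 152, 102 and 241 CPM (-1.43 ± 0.39, adjusted p = 0.00884). *Pla2g7* stood at 207 CPM against 523, 512 and 773 CPM (-1.01 ± 0.31, adjusted p = 0.0240). For each of these genes the border lay below all 3 whole arrays. Without Tumor 1 whole array 3 these 3 changes were -1.27, -1.06 and -0.79 and no longer passed (adjusted p from 0.0670 to 0.169), and without array 1 *Alox5* was at -1.16 (adjusted p = 0.0634). They were not called without the filter on low counts or with barcodes of at least 500 genes either. *Alox5* was also not called with DESeq2 (-1.34, adjusted p = 0.0981), with at least 4 markers (-1.04, 0.114) or within the Siglec-F-type (-0.82, 0.402) and mature-type states (-2.65, 0.113) described below. *Pla2g7* was also not called with at least 4 markers (-0.88, adjusted p = 0.0719) or within these states (-0.98, 0.119 and -1.33, 0.0579). *Ltc4s* stood at 55.5 CPM against 117, 127 and 150 CPM, which did not pass the test (-0.71 ± 0.38, adjusted p = 0.273) except with library size only (-1.25, adjusted p = 0.0156). *Ptgs1*, *Hpgds* and *Lta4h* had log2 changes of -0.02, 0.26 and 0.07 with adjusted p from 0.834 to 0.990, and *Ptges* was too low to test. Over the 8 genes tested the median log2 change was -0.36, beside -0.08 for all genes.

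At the Tumor 2 border 0 of the 8 genes were higher and 3 lower, against 3.52% and 5.48% of all genes. The 3 were *Alox5ap* and *Pla2g7* beside *Ptgs2*. *Alox5ap* stood at 161 CPM against 426, 497 and 524 CPM in the whole arrays, a log2 change of -2.01 ± 0.40 (adjusted p = 0.000239), and *Pla2g7* at 328 CPM against 648, 806 and 545 CPM (-1.40 ± 0.35, adjusted p = 0.00370). The border was below every whole array for both. With at least 500 genes *Pla2g7* was at -1.27 and not called (adjusted p = 0.217). Within the Siglec-F-type and mature-type states neither was called, with *Pla2g7* at -1.19 and -0.84 (adjusted p = 0.584 and 0.236) and *Alox5ap* at -6.99 and -1.50 (adjusted p = 0.321 and 0.0582). *Ltc4s* had 53.8 CPM (11 UMIs) at the border against 9.46, 11 and 9.33 CPM (8 UMIs together), which did not pass (2.0 ± 0.72, adjusted p = 0.0626) but was called with library size only, with at least 4 or 2 markers and with at most 20% mitochondrial UMIs (adjusted p from 0.0119 to 0.0442). *Alox5*, with 78.2 CPM against 104, 88.3 and 42.9 CPM, overlapped (adjusted p = 0.806). *Ptgs1* was not seen in 93 border barcodes, and whole arrays had 14.2, 0 and 5.60 CPM. The median log2 change of the 8 tested genes was -0.88, beside 0.05 for all genes.

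Between the tumors the border change differed for *Ltc4s* as well as for *Ptgs2*, at -2.70 ± 0.81 for Tumor 1 minus Tumor 2 (adjusted p = 0.0170). For *Alox5ap* and *Pla2g7*, lower at both borders, the difference was 0.58 ± 0.56 (adjusted p = 0.549) and 0.39 ± 0.45 (adjusted p = 0.634), which does not show that the 2 changes were alike. The *Ltc4s* difference was -2.75 without Tumor 2 whole array 3 (adjusted p = 0.0525) and was also not called with DESeq2, without the filter on low counts, with at least 500 genes or within the mature-type state. Restricting the fit to barcodes with at least 500 genes left the Tumor 2 *Ptgs2* change at -1.84 (adjusted p = 0.111), and within its mature-type state described below it was -1.97 (0.0577). The 10 C1q macrophage markers summed to 0.933 UMIs per 10000 in neutrophil-like barcodes of the Tumor 1 border against 3.23 to 7.23 in the whole arrays, and to 5.62 against 2.32 to 3.93 in Tumor 2, so that they were lower at the first border and higher at the second. Between 0 and 7 of the 10 were at 0 in a library, *C1qa* was at 0 in all 4 Tumor 1 libraries, and *Csf1r* and *Apoe* gave most of these UMIs. The markers of the class itself also moved at the Tumor 2 border, with 146 neutrophil markers per 10000 UMIs against 274 to 306 in the whole arrays and 43.9 mature-type markers against 117 to 130, while at the Tumor 1 border they stood at 111 against 109 to 124 and at 27.4 against 20.6 to 27.6. Of the 10 alveolar macrophage markers, *Car4* and *Chi3l3* included, 3 to 8 were at 0 in a library. *Car4* had 328 of 900717 UMIs at the Tumor 1 border, and 203 of 334761, 449 of 801408 and 268 of 372715 in whole arrays. In Tumor 2 it had 64 of 204517 at the border, and 9 of 211400, 4 of 90572 and 31 of 536051. *Chi3l3* had 0 UMIs at that border against 51, 7 and 17. The part of all these markers in the results was not tested.

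Whole-tumor arrays of the 2 tumors were then compared within the neutrophil-like class. *Ptgs2* averaged 290 ± 103 CPM (SD, n = 3) in Tumor 1 and 1957 ± 75.7 CPM (n = 3) in Tumor 2, a log2 change of 3.55 ± 0.23 (edgeR, adjusted p = 2.47e-24). *Alox5ap* was higher in Tumor 2 by 2.43 ± 0.25 (adjusted p = 1.78e-14) and *Pla2g7* by 0.93 ± 0.22 (adjusted p = 0.000212). *Ltc4s* was lower by -2.86 ± 0.46 (adjusted p = 1.96e-07), and so was *Ptgs1*, by -1.88 ± 0.61 (adjusted p = 0.00815). The arrays did not overlap between tumors for *Ptgs2*, *Alox5ap*, *Ltc4s* or *Ptgs1*, but did for *Pla2g7*. *Hpgds* and *Lta4h* did not pass (-0.23 and -0.28; adjusted p = 0.759 and 0.550), nor did *Alox5* (adjusted p = 0.9997), although its CPM in all 3 Tumor 2 arrays lay below those of Tumor 1. With library size only, the scaling that CPM uses, *Alox5* was called lower (-0.88, adjusted p = 0.0141). The *Ptgs1* call was lost with DESeq2 and without Tumor 2 whole array 3. Of the 8 genes tested, 3 were thus higher and 2 lower. This comparison called 1396 genes higher (22.6%) and 1388 lower (22.4%), so calls were frequent, and scaling by library size alone gave 685 and 3493 with a shift of the median by -0.90. Under that scaling *Pla2g7* lost its call (0.08, adjusted p = 0.699), as it did with at least 500 genes (0.80, adjusted p = 0.0744), and *Alox5* and *Lta4h* were called lower (-0.88 and -1.18; adjusted p = 0.0141 and 0.00368), while the other 4 genes kept direction and call.

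Neutrophil-like barcodes were split into 2 states by markers: a mature-type state (*Retnlg*, *Mmp8* and others; 713 barcodes) and a Siglec-F-type state (*Siglecf*, *Ffar2*, *Rab15*, *Entpd3*; 523 barcodes), a form of neutrophil known from lung tumors of mice. The Siglec-F-type share was 46.6% at the Tumor 1 border, 60.2% to 70.3% in the Tumor 1 whole arrays, 18.3% at the Tumor 2 border and 3.05% to 5.21% in the Tumor 2 whole arrays. *Ptgs2* was lower in the Siglec-F-type state, by a log2 change of -1.91 ± 0.32 with the library as a block (edgeR, adjusted p = 4.26e-05). Of 1759 genes tested, 42 (2.39%) were called higher and 164 (9.32%) lower, or 160 and 78 with library size alone, which moved the median by 0.32.

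In mature-type barcodes *Ptgs2* stood at 2375 CPM at the Tumor 1 border, at 268, 2040 and 667 CPM in the Tumor 1 whole arrays, at 588 CPM at the Tumor 2 border and at 1966, 2120 and 2088 CPM in the Tumor 2 whole arrays. The 2040 CPM rested on 46 barcodes, 1 of which held 115 of 219 UMIs. In Siglec-F-type barcodes it stood at 783 CPM at the Tumor 1 border and at 179, 146 and 139 CPM in the Tumor 1 whole arrays. The share of positive barcodes in that state was 37.7% against 12.7%, 13.7% and 10.4%, without overlap. Tumor 2 had only 4 to 17 Siglec-F-type barcodes per library. Within the Siglec-F-type state the Tumor 1 border change of *Ptgs2* was 2.72, and within the mature-type state 1.63 (adjusted p = 0.0433). Thus the rise at that border was present in each state taken alone. For Tumor 2 the change was 0.45 within the Siglec-F-type state (adjusted p = 0.701), from 17 border barcodes.

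**Figure D4:**
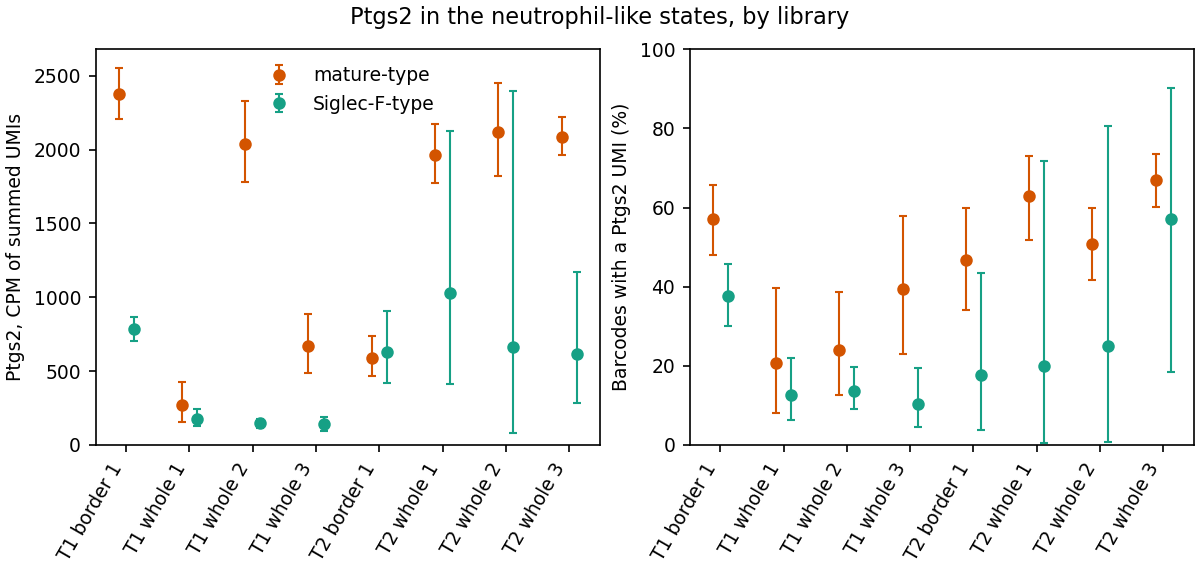
*Ptgs2* in mature-type (orange) and Siglec-F-type (green) neutrophil-like barcodes by library, as CPM (left) and as percent of barcodes with a UMI (right), with 95% exact Poisson and binomial intervals that cover counting error only. In the Tumor 1 libraries the mature-type share is above the Siglec-F-type share, and the Siglec-F-type points of Tumor 2 rest on at most 17 barcodes.

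The other genes were divided between the states in their summed levels. *Alox5* stood at 116 CPM in Siglec-F-type against 50.3 CPM in mature-type barcodes (1.10 ± 0.40, adjusted p = 0.0660) and *Alox5ap* at 113 against 321 CPM (-0.87 ± 0.34, adjusted p = 0.0915). Neither passed the test. *Alox5*, however, was called with library size only (1.44, adjusted p = 0.0144), with at least 4 markers (1.25, 0.0326) and without Tumor 1 whole array 3 (1.32, 0.0370) or Tumor 2 whole array 1 (1.23, 0.0424), and stood at 0.66 without Tumor 2 whole array 3 (0.306). *Alox5ap* was called without Tumor 1 whole array 1 (-1.07, 0.0469). *Pla2g7*, with 493 against 488 CPM, did not pass (adjusted p = 0.428). *Ltc4s* (125 against 26.2 CPM), *Lta4h* (93.7 against 42.8 CPM) and *Ptgs1* (51.0 against 14.5 CPM) were too low for the filter. Because most Siglec-F-type barcodes came from Tumor 1 and most mature-type barcodes from Tumor 2, these sums mix state and tumor. Within Tumor 1 alone *Ltc4s* stood at 128 CPM in Siglec-F-type and 44.2 CPM in mature-type barcodes. A fit without the filter, which compares states within libraries, gave *Ltc4s* a log2 change of 0.86 (adjusted p = 0.734). Within the mature-type state alone, Tumor 2 exceeded Tumor 1 in the whole arrays by 1.41 for *Ptgs2* (adjusted p = 0.00440), 1.83 for *Alox5ap* (6.21e-05) and 0.85 for *Pla2g7* (0.0157), and *Ltc4s* was lower by -2.29 (0.0435). The mature-type marker sum also differed, with 20.6 to 27.6 UMIs per 10000 in neutrophil-like barcodes of the Tumor 1 whole arrays and 117 to 130 in those of Tumor 2, and its part in the tumor difference was not tested beyond these within-state values.

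C1q macrophage-like barcodes could be compared at the border of Tumor 2 (148 barcodes, against 29, 34 and 55), because the Tumor 1 border had only 2. *Ptgs2* stood at 762 CPM at the border and at 346, 1170 and 826 CPM in the whole arrays, and *Pla2g7* at 640 CPM against 915, 797 and 869 CPM. *Ptgs1* stood at 125 CPM against 33.0, 170 and 39.6 CPM, *Alox5ap* at 268 CPM against 264, 119 and 172 CPM. For *Ptgs2* and *Ptgs1* the border lay within the range of the whole arrays, for *Pla2g7* below it and for *Alox5ap* just above. None of the 5 genes tested passed edgeR's test, with 0 also at an unadjusted p under 0.05 (unadjusted p from 0.162 to 0.831) and 0 by DESeq2, in a comparison that called 4 genes higher (0.106%) and 1 lower (0.0264%) of 3788.

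Between tumors, C1q macrophage-like barcodes of the whole arrays showed the same direction as neutrophil-like ones for *Alox5ap* and *Ptgs2*. *Alox5ap* stood at 69.2, 48.0 and 66.3 CPM in Tumor 1 and 264, 119 and 172 CPM in Tumor 2, a log2 change of 1.89 ± 0.52 (adjusted p = 0.0152). *Ptgs2* stood at 277, 356 and 508 CPM against 346, 1170 and 826 CPM (1.21 ± 0.39, adjusted p = 0.0404). The first pair of groups did not overlap and the second did. *Hpgds* (1.48 ± 0.57, adjusted p = 0.115), *Ptgs1* (1.42 ± 0.78, 0.324) and *Pla2g7* (-0.71 ± 0.33, 0.230) did not pass, though *Hpgds* was called without Tumor 1 whole array 2 (3.53, adjusted p = 0.0407). Leaving out 1 library moved the *Ptgs1* change to between 0.68 and 1.90, and it was not called. In all, 227 of 3788 genes (5.99%) were called higher and 67 (1.77%) lower. The Tumor 1 arrays had only 12 to 25 such barcodes each, and of 15 alternatives the *Ptgs2* call was lost in 8 and the *Alox5ap* call in 5. Both were lost with DESeq2, with the replicate block and without Tumor 1 whole array 2 or Tumor 2 whole array 3. The *Ptgs2* call was also lost with library size only, without primer-like barcodes and without Tumor 1 whole array 1 or Tumor 2 whole array 2 (adjusted p from 0.0509 to 0.283), and that of *Alox5ap* without Tumor 2 whole array 1 (0.106).

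Other genes of these pathways, 59 by list, of which 58 had a row, were less often measurable, with 18 tested in the neutrophil-like fits. At the Tumor 1 border 1 of the 18 was higher and 0 lower, beside 7.05% and 1.94% of all genes: *Ptafr*, the receptor of platelet-activating factor, stood at 1382 CPM against 848, 980 and 735 CPM (1.22 ± 0.27, adjusted p = 0.000657), and its border change differed between the tumors (1.99 ± 0.42, adjusted p = 0.000313). At the Tumor 2 border 0 of 18 were higher and 1 was lower, beside 3.52% and 5.48% of all genes. The latter was *Lpcat2*, an enzyme that makes platelet-activating factor, with 117 CPM against 227, 265 and 196 CPM (-1.34 ± 0.41, adjusted p = 0.0228), a call lost in 6 of 16 alternatives, DESeq2 and library size only among them. Both *Ptafr* calls were lost with at least 500 genes (adjusted p = 0.236 and 0.213), the Tumor 1 border call also within the Siglec-F-type state (0.195) and the difference within the mature-type state (0.0858). In Tumor 2 against Tumor 1 whole arrays 4 were higher (*Abcc1*, 1.02; *Mgst1*, 2.12; *Ptafr*, 1.46; and *Pafah1b1*) and 3 lower (*Plaa*, -1.90; *Ptgr2*, -3.51; *Cysltr1*, -2.60) of the 18, which is near the 22.6% and 22.4% of all genes. *Cysltr1*, a receptor for the leukotrienes that *Ltc4s* leads to, stood at 98.6, 44.9 and 75.1 CPM in Tumor 1 and at 0, 22.1 and 5.60 CPM in Tumor 2. *Ptgr2* stood at 32.9, 23.7 and 32.2 CPM in Tumor 1 and at 0, 0 and 1.87 CPM in Tumor 2. Leaving out 1 library moved the *Ptgr2* change to between -6.36 and -3.11. The arrays of *Abcc1* overlapped (35.8, 99.8 and 85.9 against 99.3, 66.2 and 83.9 CPM), and with library size only *Abcc1* (0.12, adjusted p = 0.733) and *Pafah1b1* (0.27, adjusted p = 0.207) were not called. *Abcc1* was also not called with DESeq2 or without Tumor 1 whole array 1 or Tumor 2 whole array 3, nor *Plaa* without Tumor 2 whole array 3 (-1.54, adjusted p = 0.0833). In the state comparison *Ptafr* was lower in Siglec-F-type barcodes (-1.08 ± 0.29, adjusted p = 0.00987), 1 of 4 tested, though not with library size only (-0.70, adjusted p = 0.0792). *Ptger4*, a prostaglandin E2 receptor, was the only 1 of 13 to pass in C1q macrophage-like barcodes, higher in Tumor 2 by 2.0 ± 0.57 (adjusted p = 0.0193), a call lost with DESeq2 and without Tumor 1 whole array 2 or Tumor 2 whole arrays 1 or 3 (adjusted p from 0.0680 to 0.132).

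By class, *Cyp4f18*, the leukotriene B4 hydroxylase of mouse neutrophils, stood at 560 CPM in neutrophil-like barcodes and *Ptafr* at 1137 CPM, both among the 4 of 10 tested list genes called higher there, near the 36.5% of all genes. The prostacyclin synthase *Ptgis* stood at 319 CPM in fibroblast-like barcodes and the prostaglandin transporter *Slco2a1* at 229 CPM in endothelial-like barcodes, and these were called higher. In the fibroblast-like class 2 of 10 tested list genes were called higher and 0 lower, beside 15.5% of all genes higher. In the endothelial-like class 1 of 10 was higher and 2 were lower, where over all classes 19.3% and 5.89% of pairs were called. *Ptger4* stood at 381 CPM in dendritic-like and 369 CPM in T or NK-like barcodes. The cytosolic phospholipase *Pla2g4a*, which releases arachidonic acid, stood at 8.98 CPM in neutrophil-like barcodes and the thromboxane synthase *Tbxas1* at 139 CPM in alveolar macrophage-like ones. Both were too low for the class comparison.

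Across the 55 class and library sums of at least 20000 UMIs, the genes most like each member among 6084 were found by Pearson's r of log2 (CPM + 10). The points share libraries and depth, and no test was made. *Alox5ap* followed *Wfdc17* (r = 0.93), *Pirb* (0.89) and *Mpeg1* (0.88), and *Pla2g7* followed *Csf1r* (0.89, itself a marker of the C1q class), *Slc11a1* (0.89) and *Fcer1g* (0.86). *Ptgs2* followed *Thbs1* (0.79), *Ier3* (0.77) and *Trib1* (0.76), and *Ptges* followed *Fat1* (0.82), *Emp2* (0.81) and *Ltbp3* (0.79). For *Alox5* the nearest gene was *Ffar2* (0.71), a marker used for the neutrophil-like class and its Siglec-F-type state, for *Ltc4s* *Sirpa* (0.74), for *Ptgs1* *Dram1* (0.73), for *Hpgds* *Emr1* (0.63) and for *Lta4h* *Sys1* (0.57). Among the 9 genes themselves the closest pairs were *Alox5ap* with *Pla2g7* (0.75) and *Alox5ap* with *Ltc4s* (0.62), whereas *Ptgs2* and *Ptges* stood at 0.14 and *Ptges* and *Alox5ap* at -0.22.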

How the data were processed

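The data were UMI counts from 8 Seq-Well libraries of mouse lung tumors. Per the labels and the study's methods, the authors demultiplexed reads with bcl2fastq 2.17.1.14, aligned them to mm10 with STAR 2.5.2b within the Drop-seq protocol, merged near-identical barcodes and UMIs, and deposited raw counts per gene and barcode for each array (405627 to 2029200 UMIs per library). The annotation they counted on is not given in the sources used here.

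Barcodes with at least 200 genes were given to the class with the most distinct markers detected (at least 3, ahead of the next class by at least 1). No doublet caller was run. Of 165 markers 164 had a row. Neutrophil-like states were set by the larger share of each list detected, with ties left out. Raw UMIs were summed per class and library, and levels given as CPM with exact Poisson or Clopper-Pearson 95% intervals, which cover counting error only; the floor for a count of 0 was 3 UMIs or barcodes. Positive shares were repeated after thinning to 500 UMIs. Sums of at least 10000 UMIs entered edgeR 4.0.16 (R 4.3.3; quasi-likelihood test, TMM, filterByExpr, Benjamini-Hochberg adjustment over all genes tested, threshold 0.05), with DESeq2 1.42.0 as an alternative. The neutrophil-like fit had 4 groups and 4 residual degrees of freedom. Fitted changes of the class comparison depend on the prior count for genes at 0 and are not printed. Library was a block for classes and states. On simulated counts with 4-fold changes in 200 genes, the test recovered 77% of the changed genes for the Tumor 1 border and 64.5% for the Tumor 2 border. The changed genes were drawn from those with at least 200 UMIs in the sums, and the simulated dispersion was fixed beforehand. In neutrophil-like sums *Ptgs1* (115 UMIs), *Hpgds* (93) and *Ptges* (4) lay below that limit, so these recovery rates do not cover them.

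The rule named all 9 genes, other pathway genes past the threshold, and the 3 genes most like each of the 9 by Pearson correlation (class sums of at least 20000 UMIs, genes with at least 200 UMIs, pseudocount 10 CPM). *Pla2g4a* and *Tbxas1* fell outside it and were chosen after their values were seen. The members, markers and lists were chosen with earlier results of these data known, and the counting rule of the gate after seeing the data. Alternatives were other normalizations, filters, gates and depths, single states, and leaving out each library. Gene positions are from GENCODE on GRCm38 and promoters from RefSeq. Results of 1 class, and some names, are not reported here, and counts over all classes include that class. Arrays of the 2 tumors share numbers but come from different mice.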

Additional observations from a re-analysis of the deposited data

Results flagged for a closer look

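The *Ptgs2* change between the border and the whole arrays in neutrophil-like barcodes differed between the tumors by 4.75 on the log2 scale (edgeR's test of the difference, adjusted p = 1.69e-13). The difference passed in all 15 alternatives tried, with values from 3.60 within the mature-type state to 5.08. It compares 2 border libraries, 1 per tumor, in which 45.2% (Tumor 1) and 40.9% (Tumor 2) of neutrophil-like barcodes held a UMI.

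The *Ltc4s* change differed in the opposite direction, by -2.70 (adjusted p = 0.0170), and kept its call in 10 of 15 alternatives. It rests on low counts in Tumor 2, with 11 UMIs at the border and 2, 1 and 5 in the whole arrays, against 50 UMIs at the Tumor 1 border and 39, 102 and 56 in its whole arrays.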

How the results depend on the processing

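*Ptgs2* at the Tumor 1 border was higher in all 16 alternatives (1.63 to 3.07), and its tumor difference held in all 16 (1.41 to 3.88). Its Tumor 2 border change was -1.84 with at least 500 genes, -1.97 within the mature-type state and 0.45, of the other sign, within the Siglec-F-type state. In C1q macrophage-like barcodes its tumor difference was 1.16 with DESeq2, 0.96 with library size only, 1.24 without primer-like barcodes and 0.86 to 1.57 leaving out 1 array. The array number as a replicate block, for which pairing had no ground (correlations of same-numbered arrays 0.016, 0.017 and 0.002), gave 0.97 (adjusted p = 0.0933) and 0 members called there, and changed no member's call in the neutrophil-like fit. *Abcc1*, higher in Tumor 2, was at -0.39 within the mature-type state.

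Counts of members called changed as follows. Tumor 1 border (4): 5 with library size only, 3 with DESeq2, 1 without the filter, 2 with at least 4 markers, 1 with at least 500 genes, 2 within either state and 1 to 4 leaving out 1 library. Tumor 2 border (3): 4 with library size only, at least 4 or 2 markers or at most 20% mitochondrial UMIs, 1 with at least 500 genes and 0 within either state. Their difference (2): 3 with library size only, 1 with DESeq2, without the filter, with at least 500 genes and within the mature-type state, and 1 to 2 leaving out 1 library. Tumors, neutrophil-like (5): 4 to 6 over all 16. C1q macrophage-like tumor difference (2): 0 with DESeq2, 1 with library size only, 1 without primer-like barcodes and 0 to 2 leaving out 1 library. States (1): 2 with library size only or at least 4 markers, and 1 to 2 leaving out 1 library. Classes (21): 39 without the filter and 18 to 24 leaving out 1 library. Genes called ranged from 152 to 1141 (Tumor 1 border, 556), 55 to 844 (Tumor 2 border, 557), 179 to 1443 (difference, 731), 1101 to 4178 (tumors, neutrophil-like, 2784), 2 to 15 (C1q border, 5), 139 to 310 (C1q tumors, 294), 122 to 238 (states, 206) and 5896 to 17308 (classes, 7505). Thinned to 500 UMIs, positive shares fell to 5.11% (*Ptgs1* and *Hpgds*, C1q macrophage-like), 5.92% (*Ptges*, Krt tumor-like), 3.10% (*Alox5* and *Lta4h*, neutrophil-like) and 17.7% (*Pla2g7*, neutrophil-like). The causes were not tested. Alternatives added after seeing the data were the looser gate on 2 markers, primer-like barcodes left out, border libraries left out, the mature-type state for the tumor comparisons, and class levels without the library that gave most UMIs of the gene. Depth limits the low genes most: *Ptges*, *Hpgds*, *Alox5*, *Ltc4s* and *Lta4h* could not be tested in several comparisons.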
